A study of Arabidopsis thaliana with 56 samples.

Results

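The broad H3K27me3 domains of Arabidopsis thaliana described here are the peaks of 10 kb or more on chromosomes 1 to 5. They numbered 5754 of the 58491 peaks in 12 deposited peak lists, 1 list per CUT&RUN library, and where they overlapped between libraries they merged into 927 loci. They were chosen by length, as the end of a peak minus its start plus 1 base, so their number and length are given as descriptions and were not tested. Of the 56 samples, the H3K27me3 comparison used 12 libraries, 3 in each of 4 groups: crwn1/2 endosperm, WT endosperm, crwn1/2 leaf and WT leaf. Endosperm nuclei were sorted at 6C from the seeds of pooled siliques, and leaf nuclei sorted at 2C, 4C, 8C and 16C from the fifth leaves were combined, per the labels, so each library is a pool. Endosperm mRNA came from 20 libraries: crwn1/2 at 6, 7 and 8 days after pollination (DAP; 3, 5 and 4 libraries) and WT at 6 and 7 DAP (4 libraries each). The labels give the double mutant as crwn1/2 and name no allele. They give no age for the leaf plants and no day after pollination for the endosperm H3K27me3 libraries.

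H3K27me3 is the trimethylated lysine of histone H3 that Polycomb repressive complex 2 lays down over genes kept silent in a given tissue. In plants it mostly lies over single genes, and neighbouring silent genes can be joined under 1 long stretch. Domains of this kind hold developmental regulators such as floral MADS-box and homeobox genes, seed maturation genes outside the seed, and clusters of genes for specialised metabolism. CRWN1 and CRWN2 are lamin-like coiled-coil proteins at the nuclear periphery, and the study asked what their loss does to the endosperm.

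Several libraries stood apart from the others of their group before any result was drawn. Reads in peaks were 1594043, 513627 and 1148453 in crwn1/2 endosperm (replicates 1, 2 and 3), 2195371, 2206360 and 2825736 in WT endosperm, 2964844, 3307280 and 2839094 in crwn1/2 leaf, and 3784539, 3619498 and 3280777 in WT leaf. The crwn1/2 endosperm libraries were thus the 3 shallowest, with replicate 2 lowest, and genotype and depth cannot be told apart in endosperm. Every leaf library had more reads in peaks than every endosperm library, so tissue and depth cannot be told apart either. Replicate 3 of crwn1/2 leaf had fewer and shorter broad peaks than its 2 fellows. In the mRNA libraries, which held 6986418 to 14359413 counts, CRWN2 (AT1G13220) had 23.7 to 36.9 CPM (counts scaled to a common library total) in crwn1/2 at 6 DAP, against 53.5 to 90.3 CPM in WT, and 14.2 to 33.0 against 34.8 to 44.8 CPM at 7 DAP. CRWN1 (AT1G67230) overlapped between the genotypes, at 43.9 to 104 CPM in crwn1/2 and 76.8 to 152 CPM in WT at 6 DAP. Whether these reads span the mutated part of either gene is unknown, and the H3K27me3 libraries cannot be checked in this way. Markers of other tissues were present throughout. At 6 DAP the 5 seed coat markers summed to 1754 to 2312 CPM in crwn1/2 and 1437 to 1732 CPM in WT, the 6 leaf markers to 3442 to 4716 and 5670 to 7427 CPM, the 5 embryo markers to 247 to 270 and 266 to 369 CPM, and the 6 endosperm markers to 109 to 157 and 143 to 159 CPM. At 7 DAP these sums were 995 to 1452 in crwn1/2 and 968 to 1370 CPM in WT for seed coat, 5951 to 8832 and 7495 to 9235 CPM for leaf, 217 to 304 and 186 to 218 CPM for embryo, and 90.8 to 154 and 148 to 270 CPM for endosperm. No marker was at 0 in every library of a group. Their part in the mRNA results below was not tested, and in pooled nuclei fewer nuclei of a type and less RNA per nucleus cannot be told apart.

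Broad domains were fewer in crwn1/2 endosperm than in the other groups. The crwn1/2 endosperm libraries held 376, 182 and 365 of them, WT endosperm 440, 443 and 556, crwn1/2 leaf 674, 682 and 416, and WT leaf 558, 518 and 544. The endosperm genotypes did not overlap, whereas in leaf the crwn1/2 libraries lay on both sides of WT. Group means were 308 ± 109 in crwn1/2 endosperm, 480 ± 66.1 in WT endosperm, 591 ± 151 in crwn1/2 leaf and 540 ± 20.3 in WT leaf (SD, n = 3 each). Endosperm lists were longer in all, with 5342 to 5669 peaks per library against 3959 to 4710 in leaf, so broad peaks made up 3.41% to 10.3% of endosperm peaks and 8.83% to 17.2% of leaf peaks.

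Their weight in the H3K27me3 landscape followed the same order. Broad domains covered 29.6%, 16.4% and 27.6% of all peak bases in crwn1/2 endosperm, 30.2%, 30.6% and 34.5% in WT endosperm, 45.7%, 46.3% and 29.3% in crwn1/2 leaf, and 38.4%, 35.0% and 37.9% in WT leaf. Replicate 3 of crwn1/2 leaf lay among the endosperm libraries and the other 2 crwn1/2 leaf libraries above every WT leaf library. In each tissue the library with the fewest broad peaks was a crwn1/2 one. The median length of a broad peak was alike in the 4 groups, at 13.5 ± 0.823 kb in crwn1/2 endosperm, 14.2 ± 0.189 kb in WT endosperm, 14.1 ± 0.879 kb in crwn1/2 leaf and 13.9 ± 0.344 kb in WT leaf (SD, n = 3 each).

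**Figure D1:**
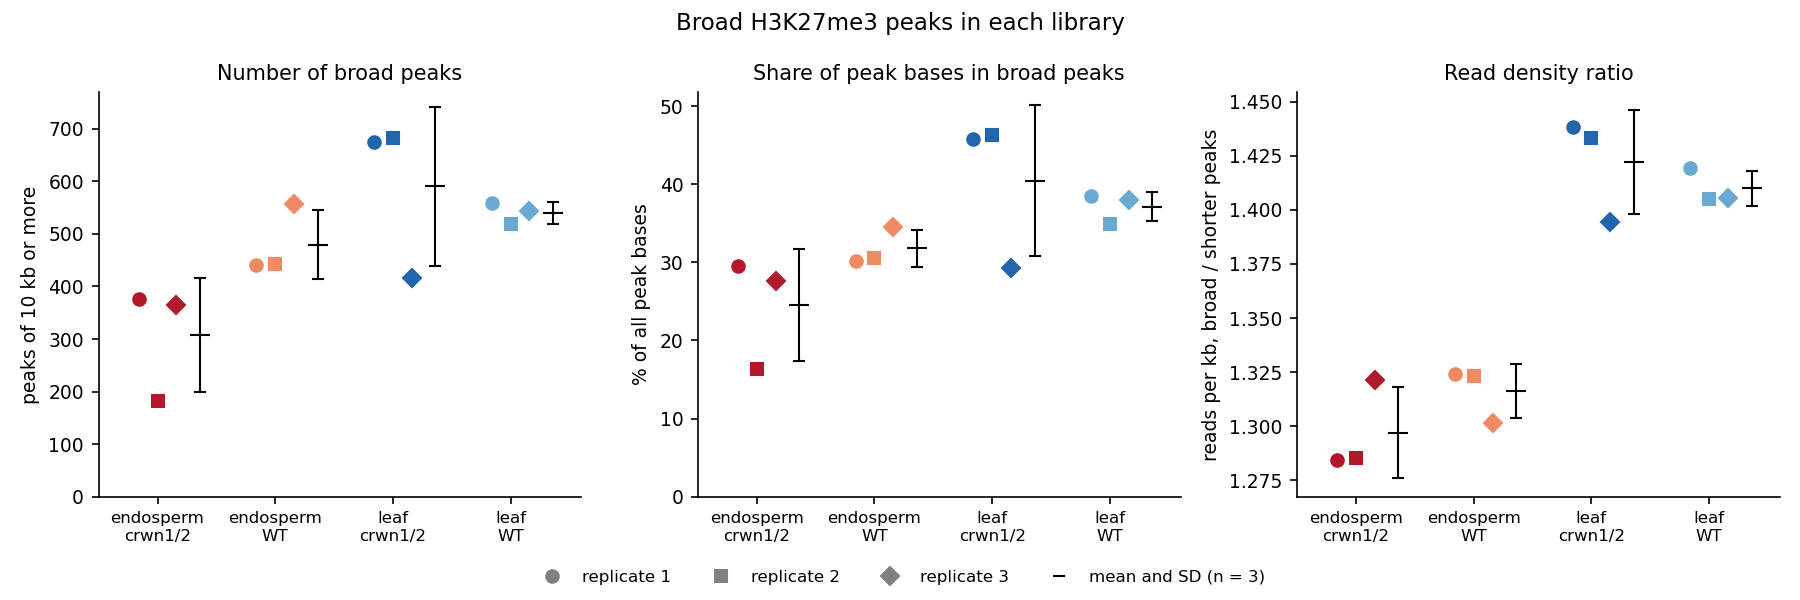
Number of broad H3K27me3 peaks, their share of all peak bases (%) and their read density relative to shorter peaks of the same library (a ratio, on an axis that does not start at 0), with 1 point per library and the mean ± SD of 3 libraries per group. The crwn1/2 endosperm libraries hold 182 to 376 broad peaks, below all WT endosperm libraries, and every leaf library has a higher density ratio than every endosperm library.

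Most broad peaks were only just long enough. Of the 5754, 3309 (57.5%) were shorter than 15 kb, 1190 were 15 to 20 kb, 934 were 20 to 30 kb, 297 were 30 to 50 kb and 24 were 50 kb or longer. Their median was 13.95 kb, against 3.15 kb over all peaks. The length limit marked no break: 171 peaks of 9.9 kb had a median read density 1.21 times that of the shorter peaks of their library, and 176 peaks of 10.05 kb also had 1.21 times. The number of peaks of 20 kb or more was 95, 30 and 86 in crwn1/2 endosperm, 102, 93 and 109 in WT endosperm, 174, 181 and 65 in crwn1/2 leaf, and 118, 93 and 109 in WT leaf. The longest peak of each library measured 55.2 to 83.1 kb in crwn1/2 endosperm, 53.25 to 54 kb in WT endosperm, 57.75 to 100.05 kb in crwn1/2 leaf and 45.6 to 84.75 kb in WT leaf.

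Broad domains were also denser in reads, not merely longer. Read density is the authors' count of H3K27me3 reads per kb of peak. It was divided by the density of the peaks under 10 kb of the same library. Depth can still bear on which peaks are called and joined, so the ratio does not set it fully aside. This ratio was 1.28, 1.29 and 1.32 in crwn1/2 endosperm, 1.32, 1.32 and 1.30 in WT endosperm, 1.44, 1.43 and 1.39 in crwn1/2 leaf, and 1.42, 1.40 and 1.41 in WT leaf. All 6 leaf libraries, which also had more reads in peaks, lay above all 6 endosperm libraries, while the genotypes overlapped within each tissue. The density ratio also climbed with length, with a median over peaks of 1.23 for 10 to 15 kb, 1.32 for 15 to 20 kb, 1.44 for 20 to 30 kb, 1.51 for 30 to 50 kb and 1.62 from 50 kb. The endosperm minus leaf difference over both genotypes was -0.109 (exact permutation test, two-sided, p = 0.005, the smallest that 400 arrangements within genotype allow). After Benjamini-Hochberg adjustment over the 35 exact tests made, that p became 0.0583, which missed 0.05. The crwn1/2 minus WT difference was -0.0193 in endosperm (exact p = 0.2) and 0.0119 in leaf (exact p = 0.4), where 3 libraries against 3 cannot give a p below 0.1.

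Merged over the 12 lists, the 927 loci spanned 10.05 to 116.55 kb each, with a median of 16.05 kb, and 18.7 Mb in all. Chromosomes 1 to 5 held 257, 168, 157, 143 and 202 of them. A locus held a median of 5 annotated genes and at most 34, and 6 loci held no whole gene. They lay mostly in the chromosome arms: 21 fell into windows of 4 Mb around the centromeres. In the windows the endosperm libraries had 0, 1 and 3 broad peaks in crwn1/2 and 4, 3 and 5 in WT, and the leaf libraries 15, 13 and 7 in crwn1/2 and 8, 7 and 10 in WT. The share of broad peak bases in the windows was at most 0.663% in endosperm and at least 1.13% in leaf, so the tissues did not overlap. The endosperm minus leaf difference was -0.938 percentage points (exact permutation test p = 0.005, the smallest possible, adjusted p = 0.0583). Tissue and depth cannot be told apart in these shares.

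The same loci were not broad everywhere. A broad peak was present in all 12 libraries at 100 loci, in both tissues at 473, in leaf libraries alone at 284, in endosperm libraries alone at 170, and in 1 library at 165. The 100 loci broad in every library were longer, with a median of 35.6 kb, than those broad in endosperm alone (12.6 kb) or in leaf alone (12.75 kb). Loci broad in all 6 libraries of a tissue numbered 125 in endosperm and 321 in leaf. Since a locus near the length limit passes in 1 library and fails in the next, a broad peak missing from a list does not mean that H3K27me3 was missing there: 0.559% to 2.92% of loci had no peak at all in a library.

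The 5 longest loci were broad in all 12 libraries, and clusters of metabolic genes stood out in 2 of them. At chr4:8713051-8818950 (105.9 kb, 23 genes) the marked stretch held PEN1 and BARS1, which encode oxidosqualene cyclases that build triterpene skeletons, with the cytochrome P450 genes CYP705A1 to CYP705A4 and CYP702A2, CYP702A3, CYP702A5 and CYP702A6. The longest peak within it was 40.2, 55.2 and 33.15 kb in crwn1/2 endosperm, 17.1, 15.9 and 24.75 kb in WT endosperm, 99.45, 100.05 and 57.75 kb in crwn1/2 leaf, and 73.2, 45.6 and 84.75 kb in WT leaf. It was made of 4, 9 and 6 peaks in crwn1/2 endosperm, 11, 9 and 9 in WT endosperm, 1, 1 and 5 in crwn1/2 leaf, and 2, 4 and 2 in WT leaf. The mean longest peak was thus longer in leaf than in endosperm, although single libraries of the tissues overlapped, and in endosperm the longest peak was longer in every crwn1/2 library than in every WT library. The locus at chr5:19423951-19505850 (81.9 kb) held THAS1 and CYP708A2, for thalianol synthase and thalianol hydroxylase, with CYP705A5 and the laccase gene TT10. It was made of 9, 14 and 9 peaks in crwn1/2 endosperm, 8, 10 and 9 in WT endosperm, 3, 3 and 5 in crwn1/2 leaf, and 4, 4 and 4 in WT leaf, so it too was in fewer pieces in leaf.

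The other long loci held mixed genes. The longest of all, chr1:12212551-12329100 (116.55 kb, 34 genes), included CYP76C5, CYP76C6, the xylan methyltransferase gene GXMT1 and PP2-A4, and held 8, 15 and 11 peaks in crwn1/2 endosperm, 14, 11 and 8 in WT endosperm, 4, 4 and 8 in crwn1/2 leaf and 6, 7 and 6 in WT leaf. The locus at chr1:19204501-19299150 (94.65 kb; IOS1, RHS6, ILL5) was in 2, 10 and 3 peaks in crwn1/2 endosperm and 10, 6 and 8 in WT endosperm, where the shallow replicate 2 overlapped WT. Its longest peak reached 50.25, 26.1 and 83.1 kb in crwn1/2 endosperm against 22.05, 31.05 and 23.85 kb in WT. At chr3:16976251-17061600 (85.35 kb; HSP17.4, HERK1, MEE39) the counts were alike in all 4 groups, at 5, 8 and 8 in crwn1/2 endosperm, 7, 10 and 7 in WT endosperm, 7, 5 and 6 in crwn1/2 leaf, and 6, 7 and 6 in WT leaf.

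**Figure D2:**
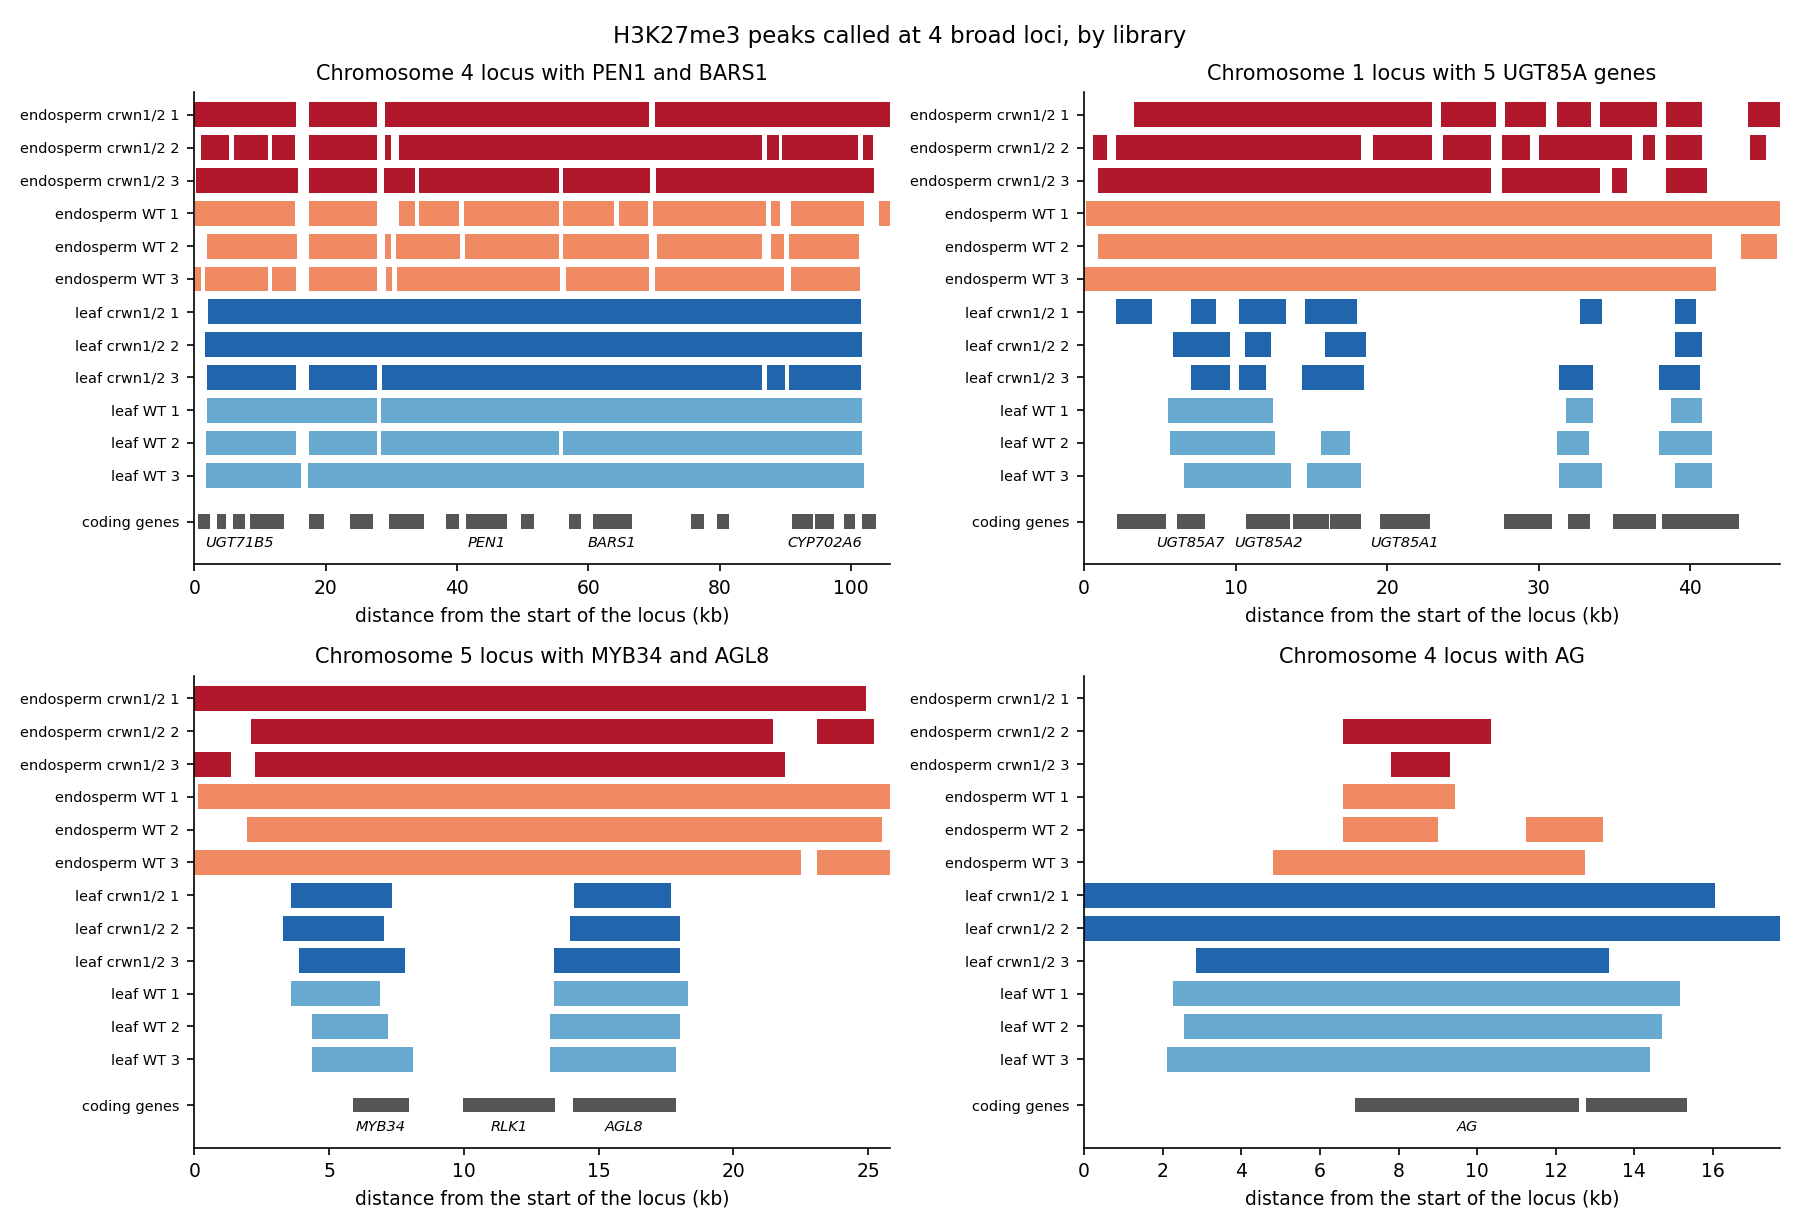
Peaks called in each of the 12 libraries over 4 broad loci: the PEN1 and BARS1 cluster on chromosome 4, the UGT85A cluster on chromosome 1, the MYB34, RLK1 and AGL8 locus on chromosome 5 and the AG locus on chromosome 4. Bars are called peaks, grey bars protein-coding genes, and the horizontal axis is distance from the start of the locus in kb; the AG locus holds 1 peak of 10.5 to 17.7 kb in each leaf library and at most 7.95 kb of peak in endosperm.

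A small set of loci was broad in every library of 1 tissue and in none of the other. The 6 endosperm ones were a UGT85A cluster of UDP-glycosyltransferase genes (chr1:7884151-7930050; UGT85A1, UGT85A2, UGT85A3, UGT85A5 and UGT85A7), chr1:17410951-17448150 with RBP47C and 5PTASE11, chr1:24275701-24298650 with the MADS-box gene AGL23 and the receptor gene CLV2, chr2:16279201-16302300 with the aquaporin gene PIP2E and NATA1, chr3:7789651-7815750 with the proteasome gene PAC1 and CWLP, and chr5:24488401-24514200 with MYB34, RLK1 and AGL8. MYB34 regulates indole glucosinolate synthesis and AGL8, also named FRUITFULL, acts in flowering and fruit growth. The AGL8 locus (25.8 kb) was covered over a mean of 22.4 kb in crwn1/2 endosperm, 24.8 kb in WT endosperm, 7.9 kb in crwn1/2 leaf and 8.1 kb in WT leaf. Leaf held shorter peaks there, and over the 6 loci between 35.7% and 46.2% of the bases were covered in each leaf library.

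The 38 leaf ones held 133 coding genes with counts. Among them, picked after their values were seen, were the floral genes AG and STK, the homeobox genes KNAT1, WUS, WOX2, WOX12 and HDG3, the seed regulators ABI3 and ABI4, MYB83, MYB86, LBD18, LBD19, TCP1 and NAC007, and the histone deacetylase gene HDA18. In endosperm 44.4% to 63.6% of their bases were covered per library, in a mean of 2.5 to 2.76 peaks per locus. At HDA18 (chr5:24570751-24586350) no peak was called in any endosperm library, whereas 14.7 to 15.6 kb were covered in each leaf library. At the WUS locus (chr2:7802251-7820400), where WUS is the stem cell regulator of the shoot tip, each leaf library had 1 peak of 17.1 to 17.7 kb, and the endosperm libraries had 3, 5 and 3 peaks in crwn1/2 and 3, 3 and 3 in WT. These sets were picked by their pattern, so their separation is a description.

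Splitting was measured on loci defined without the library's own replicate number. The other replicates of its group still helped to choose them, by the length of their peaks, and leaf and WT endosperm, with more broad peaks, chose more of them. Pieces, cover and single-peak loci are therefore given as descriptions, with no test. On these loci endosperm libraries had more pieces than leaf libraries. Peaks per locus averaged 2.47, 3.04 and 2.62 in crwn1/2 endosperm, 2.34, 2.33 and 2.19 in WT endosperm, 1.45, 1.41 and 1.86 in crwn1/2 leaf, and 1.52, 1.63 and 1.56 in WT leaf. The tissues did not overlap, and within endosperm the genotypes did not either. The endosperm minus leaf difference over both genotypes was 0.93 peaks per locus. The leaf libraries also had more reads in peaks, so depth and tissue cannot be told apart here.

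Within endosperm these loci were in more pieces and less covered in crwn1/2. The mean was 2.71 ± 0.296 peaks per locus in crwn1/2 and 2.29 ± 0.0843 in WT (SD, n = 3 each), a difference of 0.425. The share of locus bases covered by any peak was 69.3%, 56.9% and 69.6% in crwn1/2 endosperm, against 75.5%, 74.4% and 77.6% in WT endosperm. The share of loci held as 1 peak over at least 90% of their length was 7.83%, 0.786% and 5.03% in crwn1/2 endosperm, against 14.5%, 9.65% and 15.8% in WT endosperm. In all 3 measures the genotypes did not overlap in endosperm. A locus that was broad through WT libraries alone had to hold shorter peaks in crwn1/2. Without the shallow replicate 2 of crwn1/2 endosperm the differences were smaller but kept their direction: 0.26 peaks per locus, -6.4 percentage points covered and -6.89 percentage points of single-peak loci, against 0.425, -10.6 and -8.76 with it. The same 3 crwn1/2 libraries had the fewest reads in peaks, and depth and genotype cannot be told apart here.

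In leaf the genotypes overlapped in all 3 measures. Covered bases were 80.2%, 79.9% and 68.7% in crwn1/2 leaf, against 75.9%, 71.6% and 74.4% in WT leaf, and single-peak loci were 36.1%, 36.03% and 6.71% against 20.7%, 13.5% and 17.6%. Replicates 1 and 2 of crwn1/2 leaf held the loci in larger stretches than any WT leaf library, and replicate 3 in smaller ones. The crwn1/2 minus WT difference in leaf was 0.00469 peaks per locus with replicate 3 and -0.141 without it, and the single-peak difference 9.01 and 18.8 percentage points. The genotype effect in endosperm minus that in leaf was 0.421 peaks per locus, -12.9 percentage points covered and -17.8 percentage points of single-peak loci. Without replicate 3 of crwn1/2 leaf these were 0.567, -16.7 and -27.6, in the same direction and larger.

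**Figure D3:**
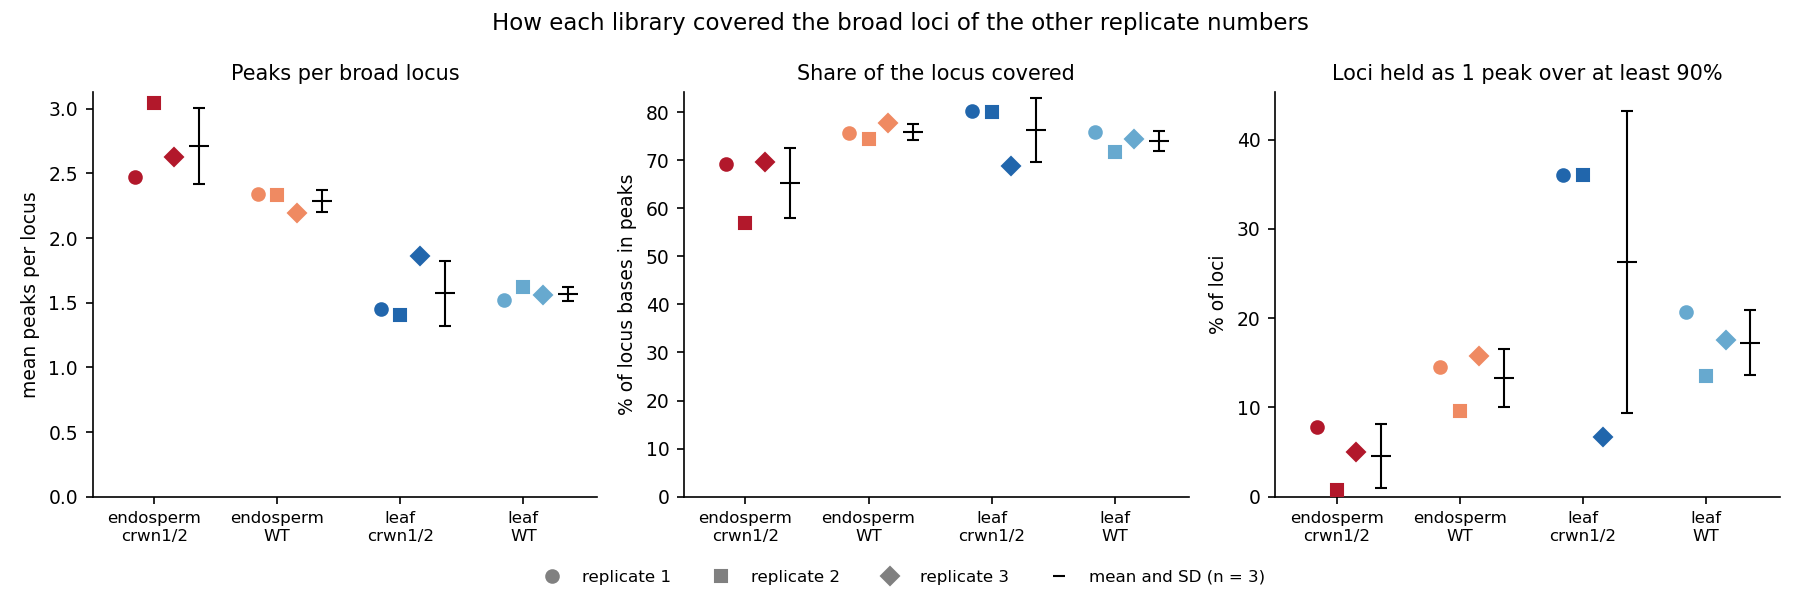
Peaks per broad locus, percentage of locus bases covered and percentage of loci held as 1 peak over at least 90% of their length, per library, with the mean ± SD of 3 libraries per group. Endosperm libraries lie above all leaf libraries in peaks per locus (2.19 to 3.04 against 1.41 to 1.86), and crwn1/2 endosperm lies apart from WT endosperm in each panel.

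Taken locus by locus, the endosperm genotypes separated fully in number of peaks at a minority of loci. Loci where the genotypes differed but overlapped are not in these counts. At 70 of the 927 loci (7.55%) every crwn1/2 endosperm library had more peaks than every WT endosperm library, and at 3 (0.324%) every one had fewer. These loci were merged over all lists, so a locus broad through WT alone had to hold shorter peaks in crwn1/2. The crwn1/2 endosperm libraries were also the shallowest, so the counts are descriptions. Over all 5860 regions of merged peaks, short ones included, those percentages were 1.62 and 3; a long locus can hold more peaks than a short one, so the shares are set side by side with no test. In leaf the genotypes separated at 8 loci with more peaks in crwn1/2 and 10 with fewer, against 0.614 and 0.717 percent of all regions.

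The UGT85A cluster was among the 3 loci with the largest rise in pieces. It held 7, 9 and 4 peaks in crwn1/2 endosperm against 1, 2 and 1 in WT endosperm, with a longest peak of 19.65, 16.2 and 25.95 kb against 45.75, 40.5 and 41.7 kb. The covered length differed less, at 36.45, 36.3 and 36.15 kb in crwn1/2 against 45.75, 42.9 and 41.7 kb in WT. Peaks there held 80.4, 34.4 and 61.4 reads per kb in crwn1/2 endosperm against 107, 112 and 142 in WT endosperm. Depth and genotype therefore cannot be told apart in the gaps between called peaks. At chr2:17656951-17690250, with LBD16, a regulator of lateral root formation, and ZFP11, there were 9, 7 and 9 peaks in crwn1/2 endosperm against 2, 3 and 4 in WT, and the longest was 3.45, 6.6 and 5.4 kb against 28.35, 13.2 and 14.1 kb. Within endosperm that locus was broad in 3 WT libraries and in no crwn1/2 library. At chr1:28333501-28391700, with the vacuolar auxin transporter gene WAT1, SRS5 and BBX21, there were 7, 6 and 9 peaks against 2, 3 and 2.

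The 3 loci with fewer peaks in crwn1/2 endosperm were short. At chr4:7853551-7863750 with the ammonium transporter gene AMT1;1 there was 1 peak in each crwn1/2 library against 3, 2 and 2 in WT, and at chr5:22252051-22265250 with GPT1, a plastid glucose 6-phosphate translocator, 1 against 2 in every library. At chr1:1767301-1778400 (AT1G05860, AT1G05870) no crwn1/2 endosperm library had a peak, while WT had 1, 2 and 1. In leaf, 3 of the loci with more peaks in crwn1/2 were chr2:10140301-10173300 (5, 4 and 4 against 2, 2 and 2), chr5:9195301-9222750 (2, 3 and 2 against 1, 1 and 1) and chr1:22993951-23020650 with the anion channel genes SLAH1 and SLAH4 and with WRKY6 (2, 2 and 2 against 1, 1 and 1). Loci with fewer were chr1:27040051-27056100 (0, 1 and 1 against 3, 3 and 3), chr3:8220601-8231250 with XRCC4, RLP37 and RLP38 (0, 1 and 0 against 2, 2 and 2) and chr1:24646351-24687300 with GSR2 and MYB20 (2, 2 and 2 against 4, 3 and 3).

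Reads summed per region were then compared across libraries. The regions are the merged peaks of all 12 lists, of which 4148 had enough reads to test and 896 of those held a broad peak. A region that entered through a broad peak in 1 group only had to differ, so the counts below are descriptions of the broad regions. In endosperm 183 of the 896 passed an adjusted p of 0.05 in edgeR's quasi-likelihood test between crwn1/2 and WT (10.6 percent of all tested regions did), 118 higher and 65 lower in crwn1/2. The other 3252 regions had 255 calls, 31 higher and 224 lower, so calls among broad regions ran mostly upward and those among shorter regions mostly downward. The count moved with the libraries used: it was 91, 119 and 93 without WT replicate 1, 2 or 3, 265 (149 higher, 116 lower) without the shallow crwn1/2 replicate 2, and 316 with DESeq2. With total reads in peaks as library size, 148 broad regions were higher and 53 lower. Only reads in called peaks are counted, and the crwn1/2 endosperm libraries were the shallowest. Depth and genotype therefore cannot be told apart in these directions, for broad or shorter regions.

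The higher regions took a larger share of the reads in crwn1/2, over a length that differed less. They and the lower regions were chosen by these same reads, so the direction of the shares was set in advance. The shares are given as descriptions. The 118 higher regions held 18.8%, 18.1% and 18.1% of all reads in peaks in crwn1/2 endosperm, against 12.8%, 13.8% and 12.8% in WT. They were covered over 3.47, 2.71 and 3.33 Mb in crwn1/2, against 2.87, 2.93 and 3.02 Mb in WT, at 86.1, 34.3 and 62.3 reads per kb against 97.7, 104 and 119. The 65 lower regions were covered over 0.582, 0.53 and 0.602 Mb in crwn1/2, against 1, 0.938 and 1.01 Mb in WT, and held 2.49%, 3.26% and 2.68% of reads against 4.69%, 4.3% and 4.29%. In a test chosen after seeing the data, reads per covered kb were compared with limma in the 830 broad regions covered in all 12 libraries, and 30 passed in endosperm, 3 higher and 27 lower (2.25 percent of the 1781 regions in that fit passed). The regions and the tool differ from those of the summed reads, so the counts are not comparable.

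Among regions higher in crwn1/2 endosperm, the one with the largest log2 difference was chr4:7537201-7562850 with UNE14, the early nodulin-like gene ENODL19 and scpl20. It had 525, 312 and 432 CPM in crwn1/2 against 99, 88 and 203 CPM in WT (log2 difference 1.70, SE 0.383, edgeR adjusted p = 0.0266), and 12.15, 6.75 and 12.15 kb were covered against 2.85, 2.85 and 6.6 kb. Next were chr5:9195301-9222750 (log2 1.35, edgeR adjusted p = 0.0499), with 25.2, 14.85 and 21.3 kb covered in crwn1/2 against 12.15, 13.05 and 10.8 kb in WT, and chr2:8293651-8309700 (log2 1.29, edgeR adjusted p = 0.0419). The first call was lost without WT replicate 1 or 2 or crwn1/2 replicate 1 (edgeR adjusted p = 0.0572 to 0.106). The call at chr5:9195301-9222750 was lost whichever of the 6 endosperm libraries was left out (0.0516 to 0.181), and the call at chr2:8293651-8309700 without any of them but crwn1/2 replicate 2 (edgeR adjusted p = 0.0505 to 0.131). Broad peaks at chr5:9195301-9222750 came from 1 crwn1/2 endosperm and 1 crwn1/2 leaf library and from no WT library. The test of that region therefore cannot stand as support.

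Among regions lower in crwn1/2 endosperm, chr1:1767301-1778400 had no crwn1/2 peak and 11.1, 7.2 and 10.05 kb of peak in WT (edgeR adjusted p = 0.00785). It was among the broad regions through 2 WT endosperm libraries alone, so its test cannot stand as support. A library without a called peak counts as 0 reads there. The region chr5:24942301-24954900 with the response regulator gene RR23 had 3.15, 1.95 and 1.2 kb covered against 9.3, 9.45 and 11.55 kb in WT (log2 difference -2.01, SE 0.36, edgeR adjusted p = 0.00901). The same limit holds for this region, which was broad in 1 WT endosperm library alone. At chr1:6865501-6887700, over AT1G19840, 1.2, 5.1 and 7.2 kb were covered against 20.55, 15.9 and 19.05 kb in WT (log2 difference -1.99, SE 0.469, edgeR adjusted p = 0.0319). Without WT replicate 1 the adjusted p of the first of these regions was 0.0552 and of the last 0.0957, and without WT replicate 3 they were 0.0636 and 0.0914. The last call was also lost without WT replicate 2 (edgeR adjusted p = 0.0673).

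In leaf 5 of the 896 broad regions passed between crwn1/2 and WT, 1 higher and 4 lower (0.241 percent of all tested regions passed in either direction, and 0.0482 percent were higher), and 98 had an unadjusted p under 0.05. DESeq2 called 36, and limma on reads per covered kb called none of 830, with 107 at an unadjusted p under 0.05. Leaving out replicate 3 of crwn1/2 leaf gave 9, and leaving out WT replicate 1 or 2 gave 3. The higher one, chr1:20421151-20437050 around the MADS-box gene AGL85, had peaks of 1.35, 2.25 and 1.2 kb in crwn1/2 leaf and no peak in WT leaf (edgeR adjusted p = 1.37e-05). Its cover was longer in endosperm, with 13.35, 9.45 and 12.3 kb covered in crwn1/2 and 14.1, 13.8 and 14.1 kb in WT. Lower in crwn1/2 leaf were chr4:12174751-12191550, over the receptor-like kinase genes CRK21, CRK22 and CRK23, with no peak in crwn1/2 and 4.8, 5.7 and 5.25 kb in WT (edgeR adjusted p = 0.00132) and a broad peak in 1 crwn1/2 endosperm library, and chr1:21180901-21195300, over the invertase gene A/N-InvA and RGXT3, with 6.15, 5.7 and 6.75 kb against 10.35, 11.25 and 8.85 kb (log2 difference -1.06, SE 0.124, edgeR adjusted p = 0.00537). The region chr1:10889401-10905750, over AT1G30700 to AT1G30750, was lower by a smaller amount (log2 difference -0.51, edgeR adjusted p = 0.015), a call lost without crwn1/2 replicate 2 or WT replicate 1 or 2 (adjusted p = 0.0847, 0.0979 and 0.102). Libraries without a called peak counted as 0 reads in the regions of AGL85 and of CRK21 to CRK23. For AGL85 these stood against 112, 162 and 99 reads in crwn1/2 leaf. The p-values of those regions therefore do not measure an absence of H3K27me3.

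The genotype effect differed between the tissues at 35 broad regions, 23 higher and 12 lower in endosperm minus leaf (2.24 percent of all tested regions passed, and 0.747 percent were higher). That count was 118 without crwn1/2 endosperm replicate 2 and 54 without its replicate 3. It was 16 without crwn1/2 leaf replicate 2, and 15, 19 and 15 without WT leaf replicates 1, 2 and 3. At chr1:20226901-20240550, with BRX-LIKE3, 4.8, 3.15 and 6.45 kb were covered in crwn1/2 endosperm against 12.9, 11.25 and 13.05 kb in WT endosperm. The leaf genotypes were alike there, at 10.65, 9.45 and 9.15 kb in crwn1/2 and 10.2, 9.45 and 9.45 kb in WT (difference of log2 effects -1.31, edgeR adjusted p = 0.00339). The region chr5:1899151-1931250, with the cytokinin-activating enzyme gene LOG7, AtPOT1b and the peroxiredoxin gene 2-Cys Prx B, showed the same pattern, with 9.45, 9.6 and 10.8 kb covered in crwn1/2 endosperm against 25.8, 22.05 and 27.15 kb in WT endosperm, and 7.05, 12.9 and 6.9 kb against 8.55, 7.65 and 8.55 kb in leaf (difference -1.30, edgeR adjusted p = 0.00796).

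Far more broad regions differed between the tissues than between the genotypes, and tissue and depth again cannot be told apart. Between endosperm and leaf, 498 of 896 passed in crwn1/2, 304 higher and 194 lower in endosperm (34.4 percent of all tested regions), and 521 in WT, 292 higher and 229 lower (38.7 percent). With total reads in peaks as library size in place of TMM scaling, the splits were 256 higher and 247 lower in crwn1/2 and 235 higher and 318 lower in WT, with the median log2 difference of all regions moved by -0.10 and -0.14, so which direction led among broad regions in WT depended on the scaling. Regions with peaks in endosperm and none in leaf included chr2:17495701-17512800 with ZFP8 (7.5, 9.15 and 15.6 kb in crwn1/2, 16.35, 12.45 and 10.35 kb in WT) and chr1:22041301-22054650 with SNL5 and E1 ALPHA (4.35, 6 and 6.45 kb in crwn1/2, 12, 11.85 and 13.05 kb in WT). At chr4:11635051-11656800, with the calcium-dependent kinase gene CPK15 and PRXR1, 13.95, 12.75 and 17.55 kb were covered in crwn1/2 endosperm and 21.45, 18 and 20.7 kb in WT endosperm, and 1 WT leaf library had a peak, of 1.2 kb. At chr5:21542551-21567900, with the abscisic acid receptor gene RCAR3, the endosperm cover was 17.1, 11.25 and 12.75 kb in crwn1/2 and 24.45, 20.4 and 22.05 kb in WT, and 1 crwn1/2 leaf library had a peak, of 0.9 kb. Besides HDA18, the reverse held at chr2:17187601-17198850 with the gene ORS1, which had no endosperm peak and 8.4 to 11.1 kb in the leaf libraries.

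Genes inside the broad loci were mostly quiet in WT endosperm. Of 37887 genes placed on chromosomes 1 to 5, 5316 (14.03%) lay wholly inside a locus, among them 3975 of 27432 protein-coding genes (14.5%). The share inside was 23.6% for microRNA genes, 19.6% for long non-coding RNA genes, 20.7% for transcribed pseudogenes and 4.21% for other pseudogenes, with no test of these differences. At 6 DAP 42.2% of the 3860 counted coding genes inside loci reached 1 CPM in WT, against 70.4% of all 26700 coding genes, and their median was 0.601 CPM against 9.99 CPM. At 7 DAP the shares were 48.8% and 73.0%, and the medians 0.956 and 9.62 CPM. In loci broad in leaf alone 39.4% of coding genes reached 1 CPM at 6 DAP and 42.9% at 7 DAP. The shares were 45.3% and 53.8% in loci broad in endosperm alone, and 38.9% and 48.8% in loci broad in all 12 libraries.

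Homeobox and seed genes were common inside the loci. All 4 class I KNOX genes lay inside one, with 9 of 15 WOX genes, 11 of 14 seed maturation genes, 5 of 11 floral organ identity genes, 4 of 14 type I MADS-box genes, 2 of 9 imprinted genes and 1 of 6 flowering repressors, beside 14.03% of all genes. Of the cell type markers, 3 of 5 embryo, 3 of 6 leaf, 1 of 5 seed coat and none of the 6 endosperm markers lay inside. A broad peak at a gene's locus need not cover the gene itself.

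Of the 11 floral identity genes 5 lay inside a broad locus, and 4 of these were broad in leaf libraries and in no endosperm library. AG, which specifies stamens and carpels, lay at chr4:10375951-10393650, with 16.05, 17.7 and 10.5 kb covered in crwn1/2 leaf and 12.9, 12.15 and 12.3 kb in WT leaf. In endosperm only 0, 3.75 and 1.5 kb were covered in crwn1/2, against 2.85, 4.35 and 7.95 kb in WT. STK, which specifies ovules, lay at chr4:6224101-6248700, with 10.35, 4.95 and 3.15 kb covered in crwn1/2 endosperm and 13.5, 6.9 and 11.4 kb in WT endosperm, and 19.65 to 24.6 kb in every leaf library. SHP2, a carpel and fruit gene at chr2:17817151-17833950, had no peak in 2 crwn1/2 endosperm libraries and 1 WT endosperm library, and at most 3.15 kb in the others. In leaf 14.7 to 16.8 kb were covered at SHP2. SEP3 at chr1:8590351-8601750 was broad in 2 crwn1/2 leaf libraries and 1 WT leaf library and in none of endosperm. AP1, the sepal and floral meristem gene, differed from these: its 35.7 kb locus at chr1:25968601-26004300 was broad in all 12 libraries.

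Homeobox genes showed each of the patterns. WUS, WOX2, WOX12, KNAT1 and HDG3 were broad in every leaf library and in no endosperm library. WOX9 at chr2:14336401-14353950 and WOX11 at chr3:886351-907350 were broad in all 6 leaf libraries, in all 3 of WT endosperm and in none of crwn1/2 endosperm. At WOX11 the longest peak was 6.45, 4.95 and 8.55 kb in crwn1/2 endosperm against 11.85, 17.7 and 17.55 kb in WT endosperm, although 12.45, 13.8 and 16.5 kb were covered in all against 18, 17.7 and 17.55 kb. At WOX9 the longest peak was 9.6, 7.35 and 9.75 kb in crwn1/2 endosperm, just under the length limit in 2 libraries, against 13.35, 13.35 and 12.6 kb in WT. WOX8, an embryo and suspensor gene at chr5:18630001-18666450, had a longest peak of 12.6, 5.1 and 6.9 kb in crwn1/2 endosperm, 10.95, 10.35 and 16.05 kb in WT endosperm and 31.95 to 35.55 kb in leaf. WOX4, which acts in the cambium, was broad in all 12 libraries at chr1:17210401-17252850. STM, KNAT2 and KNAT6 were broad in 1, 2 and 1 libraries of crwn1/2 endosperm against 2, 3 and 3 of WT endosperm. None of these homeobox genes was thus broad in more libraries of crwn1/2 endosperm than of WT endosperm. That direction does not set them apart. The shallower crwn1/2 endosperm libraries held fewer broad peaks in all, 182 to 376 against 440 to 556 in WT endosperm.

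Most listed seed genes were broad in leaf, and several were broad in endosperm too. ABI3, FUS3 and LEC1, regulators of seed maturation, were broad in no endosperm library and in 3, 2 and 2 crwn1/2 leaf libraries and 3, 2 and 3 WT leaf libraries, whereas LEC2 (chr1:9887551-9924000) was broad in all 12. At LEC1 (chr1:7722301-7734900) 5.85, 2.1 and 4.2 kb were covered in crwn1/2 endosperm and 3.6, 3.9 and 3.9 kb in WT endosperm, against 9.75 to 12.45 kb in leaf. The storage protein genes SESA1 to SESA4, a cluster of 2S albumins at chr4:13605451-13617750, shared 1 locus that was broad in no crwn1/2 endosperm library and 2 of WT endosperm. Its longest peak was 6.6, 7.05 and 9.6 kb in crwn1/2 endosperm against 11.1, 12 and 9.75 kb in WT, so the groups separated narrowly. CRU3, a 12S globulin gene at chr4:14080801-14107800, was broad in 2 crwn1/2 and 3 WT endosperm libraries and in every leaf library. FLC, the flowering repressor at chr5:3154201-3182550, was broad in 2 crwn1/2 and 3 WT endosperm libraries and in every leaf library.

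A few listed genes were broad in endosperm and not in leaf, or in both. At AGL23, a type I MADS-box gene, the longest peak was 18.9, 14.1 and 14.85 kb in crwn1/2 endosperm, 17.4, 21 and 18 kb in WT endosperm, 9.75, 9.75 and 5.55 kb in crwn1/2 leaf and 6.3, 5.7 and 4.65 kb in WT leaf. The photosynthesis genes RBCS1B, RBCS2B and RBCS3B, for the small subunit of Rubisco, shared a locus at chr5:15362551-15386250 that was broad in all 12 libraries. It was covered over 23.4, 20.55 and 22.8 kb in crwn1/2 endosperm, 23.4, 22.95 and 22.95 kb in WT endosperm, 14.55, 14.1 and 13.5 kb in crwn1/2 leaf and 14.1, 14.1 and 13.95 kb in WT leaf. The endosperm stretch was thus longer than the leaf one in every library, with no separation of the genotypes in endosperm.

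The mRNA of genes inside broad loci was compared between crwn1/2 and WT endosperm. At 6 DAP 432 of 2225 tested genes inside loci passed (19.4%, against 12.6 percent of all tested features), 224 higher and 208 lower in crwn1/2. At 7 DAP 576 passed (25.9%, against 24.4 percent), 245 higher and 331 lower. Both edgeR counts ran in both directions, and the median log2 difference of the genes inside was 0.01 at 6 DAP and -0.08 at 7 DAP, against -0.01 and 0.02 over all features. Against nuclear genes alone, of which 13 percent passed at 6 DAP and 22.2 percent at 7 DAP, the shares inside were still the larger. Without crwn1/2 replicate 2 the 6 DAP count was 268, and without WT replicate 1 the 7 DAP count was 394. In WT the share of coding counts from genes inside loci was 6.26% ± 0.264 at 6 DAP and 7.98% ± 0.757 at 7 DAP (SD, n = 4 each), and in crwn1/2 it was 6.4% ± 0.413 (n = 3), 6.39% ± 0.326 (n = 5) and 8.33% ± 0.305 (n = 4) at 6, 7 and 8 DAP.

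Of the 4 tested floral genes inside the loci, AG and STK rose in crwn1/2 endosperm on both days, and SEP3 and SHP2 did not pass. Over all features 6.38 percent were higher at 6 DAP and 10.9 percent at 7 DAP. AG had 24.6, 16.8 and 22.4 CPM in crwn1/2 at 6 DAP, against 7.1, 6.32, 5.84 and 8.37 CPM in WT (log2 difference 1.62, SE 0.271, edgeR adjusted p = 0.000256). At 7 DAP AG had 8.71 to 16.4 CPM in 5 crwn1/2 libraries, against 4.82 to 7.89 CPM in 4 WT libraries (log2 0.89, edgeR adjusted p = 0.0113). STK had 185, 327 and 151 CPM in crwn1/2 at 6 DAP, against 66.5, 45.6, 90.02 and 79.8 CPM in WT (log2 difference 1.65, SE 0.274, edgeR adjusted p = 0.000237). The genotypes did not overlap for either gene at 6 DAP, nor for AG at 7 DAP. STK at 7 DAP had a log2 difference of 0.88 (edgeR adjusted p = 0.0124, and 0.0501 without WT replicate 4). STK is known from ovules and seed coats, and the summed seed coat markers were also higher in crwn1/2 at 6 DAP, as given above, with the seed coat gene BAN higher (log2 1.46, edgeR adjusted p = 3.54e-05) and the seed coat genes GL2 and MUM4 lower (log2 -1.26 and -1.31). Their part in these results was not tested.

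Homeobox genes inside the loci moved in both directions. HDG3, an imprinted gene read mainly from the paternal copy, had 174, 57.3, 89.6, 75.1 and 80.7 CPM in crwn1/2 at 7 DAP, against 11.4, 18.9, 9.30 and 26.2 CPM in WT (log2 difference 2.54, SE 0.334, edgeR adjusted p = 1.9e-05). At 6 DAP HDG3 also rose (log2 1.04, edgeR adjusted p = 0.0412), but that call was lost in 7 alternatives, with adjusted p-values of 0.0628 to 0.182, and the library that gave 0.182 when left out was crwn1/2 replicate 2. KNAT1 fell at 6 DAP, with 6.65, 3.97 and 7.28 CPM in crwn1/2 against 10.5, 19.1, 19.7 and 18.9 CPM in WT (log2 difference -1.51, SE 0.335, edgeR adjusted p = 0.00408). KNAT6 rose at 7 DAP, where the ranges overlapped, at 21.7 to 53.7 CPM in crwn1/2 and 6.97 to 24.4 CPM in WT (log2 1.29, edgeR adjusted p = 0.00382). WOX8 fell on both days, with 17.3, 10.2 and 14.7 CPM in crwn1/2 at 6 DAP, against 63.2, 44.03, 66.7 and 48.9 CPM in WT (log2 difference -1.98, SE 0.255, edgeR adjusted p = 1.22e-05), and a log2 difference of -1.39 at 7 DAP (edgeR adjusted p = 8.73e-05). WOX2 rose at 6 DAP, at 3.82, 3.26 and 2.04 CPM in crwn1/2 against 0.13 to 0.679 CPM in WT (log2 3.04, edgeR adjusted p = 0.0111). WOX9, WOX11, WOX12, STM and KNAT2 passed on neither day, so WOX9 and WOX11, broad in WT endosperm and not in crwn1/2 endosperm, had no mRNA call. Of the type I MADS-box genes inside, 2 of 3 tested rose at 6 DAP, when 6.38 percent of all features were higher. None passed at 7 DAP, when 24.4 percent of all features did. AGL92 had 1.27, 4.79 and 2.93 CPM in crwn1/2 at 6 DAP, against 0.361, 0.365, 0 and 0.226 CPM in WT (edgeR adjusted p = 0.0114, and 0.0565 without crwn1/2 replicate 2). AGL96 had 2.35, 1.63 and 0.178 CPM, against 0, 0.122, 0.13 and 0.113 CPM in WT (edgeR adjusted p = 0.0441), a call lost in 7 alternatives with adjusted p-values of 0.0508 to 0.124.

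Of 11 tested seed maturation genes inside the loci, 6 fell and 1 rose in crwn1/2 at 7 DAP, when 13.5 percent of all features were lower and 10.9 percent higher. At 6 DAP 2 fell and none rose (6.26 and 6.38 percent of all features). SESA2, SESA3 and SESA4 share 1 locus. FUS3 fell on both days, with 289, 138 and 196 CPM in crwn1/2 at 6 DAP, against 391, 374, 533 and 441 CPM in WT (log2 difference -1.07, SE 0.238, edgeR adjusted p = 0.00421) and a log2 difference of -0.75 at 7 DAP (edgeR adjusted p = 0.0101). LEC1 was the gene that rose, with 118 to 170 CPM in crwn1/2 at 7 DAP, against 36.004 to 63.3 CPM in WT (log2 difference 1.46, SE 0.165, edgeR adjusted p = 3.39e-06). Of the storage protein genes, CRU2 had 10.3 to 163 CPM in crwn1/2 and 69.1 to 883 CPM in WT at 7 DAP (log2 -2.15, edgeR adjusted p = 0.00575), and SESA3 144 to 2354 against 1387 to 5711 CPM (log2 -1.66, edgeR adjusted p = 0.0156), so both groups overlapped. SESA2 and SESA4 also fell at 7 DAP (log2 -1.505 and -2.47), and the SESA2 call was lost without WT replicate 3 (edgeR adjusted p = 0.0934) or crwn1/2 replicate 5 (0.0559). The SESA3 call at 6 DAP (log2 -2.11, edgeR adjusted p = 0.0248) was lost in 5 alternatives, with adjusted p-values of 0.0577 to 0.125. ABI3, LEC2, SESA1 and CRU1 passed on neither day. FLC fell at 6 DAP, with 38.9, 46.0 and 45.0 CPM in crwn1/2 against 65.8, 86.0, 87.0 and 83.4 CPM in WT (log2 difference -0.89, SE 0.19, edgeR adjusted p = 0.00284).

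**Figure D4:**
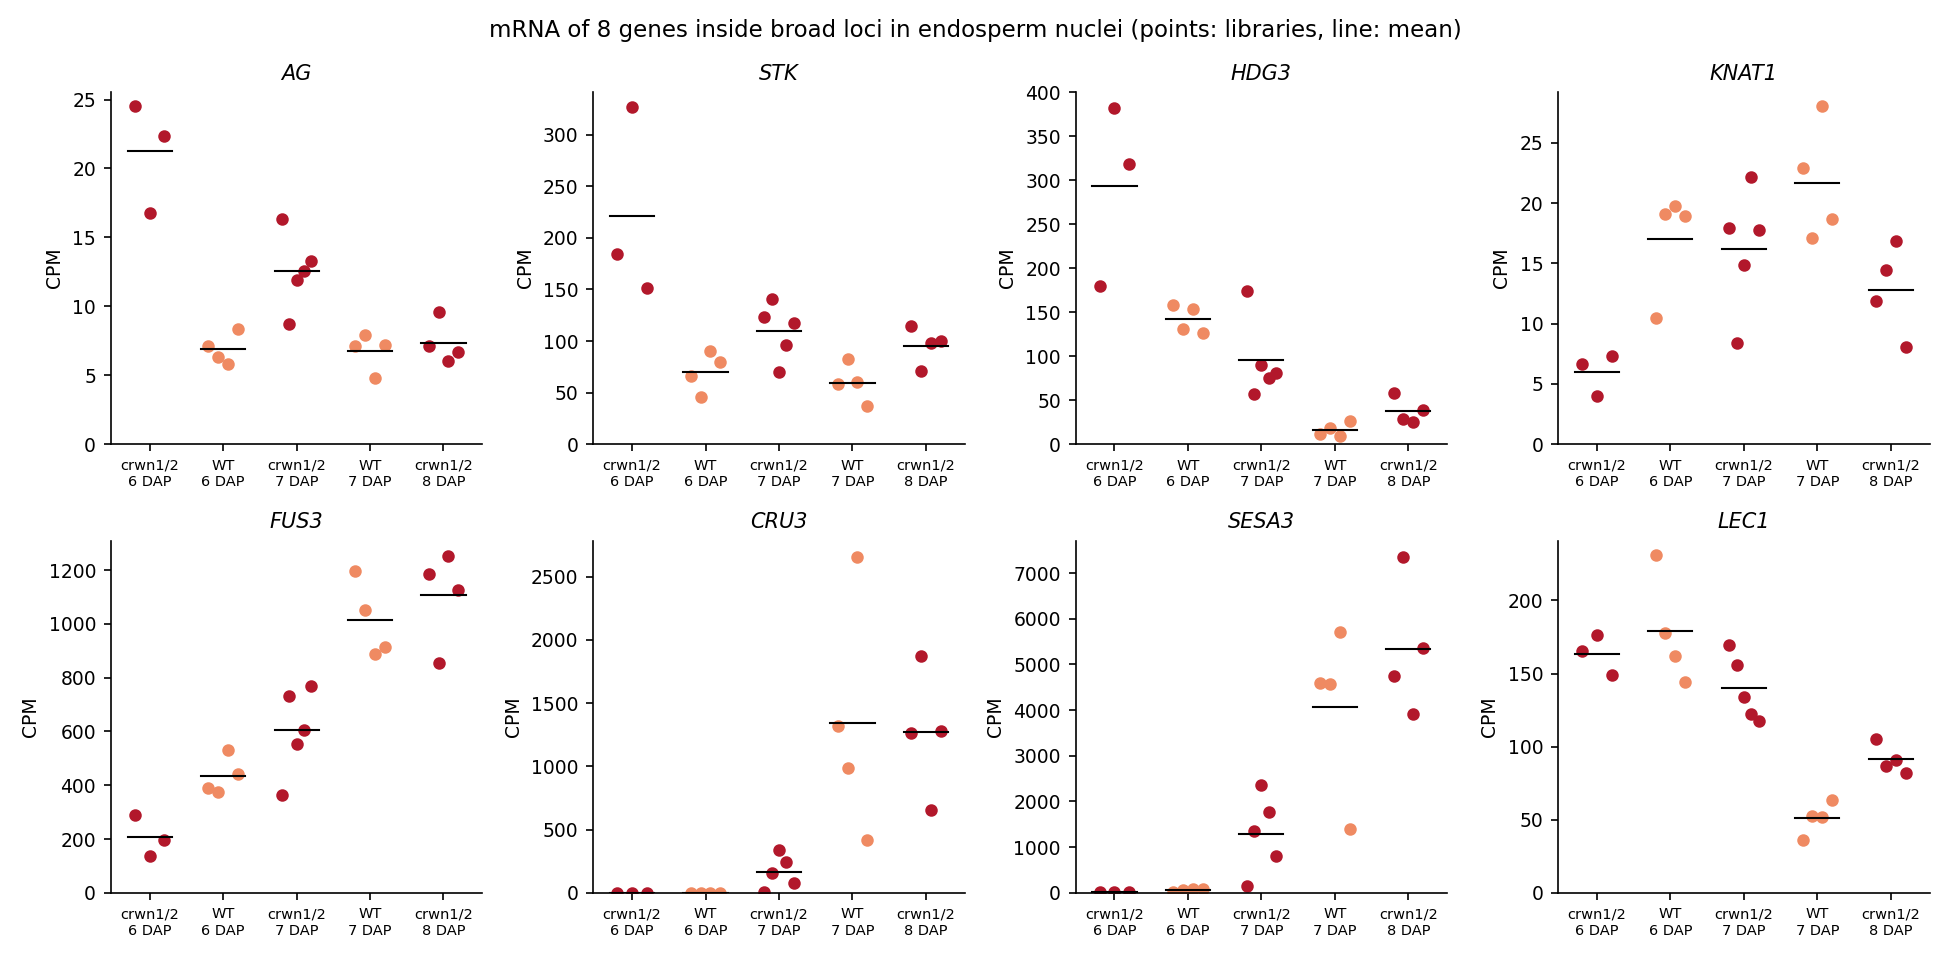
mRNA level (CPM) of AG, STK, HDG3, KNAT1, FUS3, CRU3, SESA3 and LEC1 in each endosperm library of crwn1/2 and WT at 6 and 7 DAP and crwn1/2 at 8 DAP; points are libraries and lines group means. AG and STK lie higher in crwn1/2 than in WT at 6 DAP, LEC1 and HDG3 at 7 DAP, and CRU3 and SESA3 are far lower at 6 DAP than at 7 DAP in both genotypes.

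Other genes inside broad loci had larger differences. LP1, a lipid transfer protein gene at chr2:16119001-16132350, had 251, 525.9 and 106 CPM in crwn1/2 at 6 DAP, against 15.2, 32.0, 10.5 and 4.30 CPM in WT (log2 difference 4.25, SE 0.602, edgeR adjusted p = 3.68e-05). GRP5, a glycine-rich protein gene at chr3:7131001-7145250, had 49.1, 92.6 and 23.9 CPM against 3.73, 5.35, 0.519 and 2.60 CPM (log2 difference 4.17, edgeR adjusted p = 1.75e-05). In both, replicate 2 of crwn1/2 was the highest library and no library overlapped. AT3G49270, AT5G54220 and AT5G46877 also rose at 6 DAP (log2 3.71, 4.83 and 4.33), and the AT5G46877 call was lost without crwn1/2 replicate 2 (edgeR adjusted p = 0.107). AT1G23570, at chr1:8338651-8384250, fell most, with 2.05, 0.204 and 0.178 CPM in crwn1/2 at 6 DAP, against 34.3, 55.1, 54.7 and 60.9 CPM in WT (log2 difference -5.98, SE 0.711, edgeR adjusted p = 4.32e-06). AT2G38890 at chr2:16238551-16267350 fell on both days, with 0.489, 1.94 and 0.444 CPM against 22.02, 51.9, 60.96 and 41.3 CPM at 6 DAP (log2 -5.54) and a log2 difference of -3.20 at 7 DAP. AT5G05020, AT1G31670 and the cytochrome P450 gene CYP702A8 fell at 6 DAP by log2 differences of -5.74, -4.48 and -4.09.

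At 7 DAP the genes with the largest positive differences were AT5G46877, SK3, AT5G54220, AT3G24690 and AT2G19970 (log2 6.82, 5.06, 4.95, 4.75 and 4.64). AT3G24690 had 3.25 to 15.4 CPM in crwn1/2 and 0.134 to 0.336 CPM in WT, and AT2G19970 8.77 to 52.4 CPM against 0 to 2.95 CPM. The WT levels of both were higher at 6 DAP, at 3.85 to 18.9 CPM and 11.54 to 15.9 CPM. Lowest in crwn1/2 relative to WT at 7 DAP were AT1G23570, AT3G26140, AT2G38890, CRU3 and AT1G31670 (log2 -3.52, -3.34, -3.20, -3.05 and -3.02). AT1G23570 had 17.4 to 157 CPM in crwn1/2 and 672 to 1797 CPM in WT on that day.

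The mRNA calls were set against the H3K27me3 of the same domains, although the day of the endosperm H3K27me3 libraries is not given and may differ. Of 170 tested genes in the 65 regions with fewer reads in crwn1/2 endosperm, 18 rose and 8 fell at 6 DAP (15.3%, against 12.6 percent of all features). At 7 DAP 25 rose and 13 fell (22.4%, against 24.4 percent), and the median log2 differences were 0.17 and 0.15 on the 2 days. Of 473 tested genes in the 118 regions with more reads, 39 rose and 48 fell at 6 DAP (18.4%), and 54 rose and 98 fell at 7 DAP (32.1%). Their median log2 differences were -0.04 and -0.11. In the 713 regions with no H3K27me3 call, 206 rose and 173 fell among 1994 at 6 DAP, and 224 rose and 256 fell at 7 DAP. At the 70 loci split in crwn1/2 endosperm the edgeR calls at 6 DAP were 20 higher and 18 lower of 237 tested (16.0%, against 12.6 percent of all features), and 23 higher and 31 lower at 7 DAP (22.8%, against 24.4 percent). By tissue, genes in loci broad in leaf alone had the most calls at 6 DAP, 116 of 447 (26.0%; 71 higher and 45 lower), against 45 of 308 (14.6%; 28 and 17) in loci broad in endosperm alone and 271 of 1470 (18.4%; 125 and 146) in loci broad in both. At 7 DAP these were 135 (30.2%), 68 (22.1%) and 373 (25.4%). No test of the difference between these sets was made.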

How the data were processed

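In all, 12 H3K27me3 CUT&RUN libraries and 20 endosperm mRNA libraries were used. The 12 H3 and 12 IgG samples were not used. The lists hold 1 set of peaks per library, in the layout of epic2, with replicates not pooled. The submitters' processing notes name the build TAIR10 and, with no role or order, SICER 0.0.52, DiffBind 3.8.4, Trim Galore 0.6.7, Bowtie2 2.3.4.1, SAMtools, Picard, deepTools, STAR 2.7.1a and HTSeq. Per the file headers, each peak has a count of H3K27me3 reads, the authors' log2 enrichment over a control, and the authors' FDR, an adjusted p-value. Which control was used is not given in the sources used here, and the 12 columns of control counts name no sample and were not used. The log2 enrichment and the FDR served to describe and filter peaks. The mRNA files hold the authors' deposited counts of reads per gene or transposable element, whole numbers in the layout of HTSeq. Their strand setting and annotation are not given in the sources used here, so genes with near-identical copies and overlapping or antisense genes are uncertain. No-feature reads made up 4.05% to 5.92% of a library and stayed out of totals and tests.

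Peak edges lie on a grid of 150 bp and were turned to 1-based positions. Broad peaks were merged into loci where they overlapped, and a gene was inside a locus when it lay wholly within it. Gene positions came from RefSeq's table of TAIR10.1, to which 31912 of 32678 gene IDs matched; none of its coordinates is printed. Moving the genes by 5 kb to either side raised the share of inside coding genes with at least 1 CPM in WT to 55.0% or 54.6%, against 46.0104% in place. The centromere windows were 13 to 17 Mb on chromosome 1, 2 to 6 Mb on 2, 12 to 16 Mb on 3, 2 to 6 Mb on 4 and 10 to 14 Mb on 5, placed from general knowledge.

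Counts were fitted with edgeR 4.0.16 (R 4.3.3), with TMM scaling, filterByExpr with a minimum count of 10 and a minimum total of 15, 1 model with a term per group, the quasi-likelihood test and Benjamini-Hochberg adjustment over all 4148 regions or 24696 mRNA features tested, at a threshold of 0.05. Values per library were compared with exact two-sided permutation tests, 35 in all; those on splitting are not printed, because peak length chose the loci. DESeq2 1.42.0, limma 3.58.1, other scalings, filters, length limits, peak thresholds, joined gaps and each library left out were tried as alternatives. The fits were first tested on simulated data with known changes. Replicates of a group differed by more than sampling noise. Nothing says that they came from separate plants or sorts, so p-values measure the spread between these libraries, which may be technical. The labels give no batch or date.

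The domains, gene lists and tests were chosen with earlier results of these data known. The text names the 5 longest loci; per contrast, the 3 regions furthest up and the 3 furthest down among those past the threshold with groups that did not overlap; the 3 loci per tissue with the largest gain and loss of pieces; per day, the 5 genes inside loci furthest up and the 5 furthest down in mRNA, by the same limits and with a mean of at least 10 CPM; and genes of the lists (floral identity, flowering repressors, KNOX, WOX, type I MADS-box, seed maturation, imprinted genes and cell type markers). The loci of 1 tissue, AGL8, HDA18 and the other gene symbols at a locus were added after their values were seen.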

Additional observations from a re-analysis of the deposited data

Results flagged for a closer look

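Where the genotype effect was tested for a difference between the tissues, the named regions with a positive difference (endosperm minus leaf, log2 scale) were chr4:12174751-12191550, chr1:21180901-21195300 and chr2:8144401-8154750. The first, over CRK21 to CRK23, had a fitted value of 12.27, which is no bound because crwn1/2 leaf had no peak there. At chr1:21180901-21195300, over A/N-InvA, the difference was 1.098 (edgeR adjusted p = 0.00767). At chr2:8144401-8154750, over the xyloglucan-modifying enzyme gene XTH21, it was 1.05 (edgeR adjusted p = 0.02). There 8.25, 4.8 and 4.8 kb were covered in crwn1/2 endosperm against 3.3, 3.3 and 4.8 kb in WT endosperm, and 9.15, 9.3 and 8.1 kb in crwn1/2 leaf against 10.05, 9.15 and 9.6 kb in WT leaf. That call was lost in 5 alternatives, with adjusted p-values of 0.0501 to 0.0731.

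Negative differences were -9.56 at chr1:20421151-20437050 around AGL85, a fitted value against WT leaf libraries with no peak, -1.31 at chr1:20226901-20240550 with BRX-LIKE3, and -1.30 at chr5:1899151-1931250 with LOG7. In the last 2 regions the crwn1/2 endosperm libraries were covered over a shorter length than all WT endosperm libraries, while the leaf genotypes overlapped.

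Single mRNA libraries lay far from the rest of their group at 11 of 124 pairs of a named gene and a group of 4 or 5 libraries, where chance gives about 1 in 20. In crwn1/2 at 7 DAP 1 library stood high for LP1 (70.1 CPM, next 21.8 CPM), AT3G49270 (31.3 CPM, next 12.5 CPM) and HDG3 (174 CPM, next 89.6 CPM). All 5 crwn1/2 libraries of HDG3 lay above the 4 WT libraries with or without that one. In crwn1/2 at 8 DAP the single high libraries were at 696 CPM for AT1G23570 (next 454 CPM) and 0.575 CPM for AGL96 (next 0.0818 CPM). In WT at 6 DAP CYP702A8 had a library at 12.9 CPM (next 4.33 CPM) and AT2G19970 one at 15.9 CPM (next 12.1 CPM), both high. Low WT libraries at 6 DAP were at 4.98 CPM for AT3G26140 (next 8.39 CPM), 10.5 CPM for KNAT1 (next 18.9 CPM) and 0 CPM for AGL96 (next 0.113 CPM). WOX2 had 3.83 CPM in 1 WT library at 7 DAP, against at most 0.560 CPM in the other 3.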

How the results depend on the processing

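The crwn1/2 endosperm libraries were the shallowest, so depth and genotype cannot be told apart there, and reads in peaks are known for called peaks alone. All endosperm libraries had fewer reads in peaks than all leaf libraries, so depth and tissue cannot be told apart either. Of 444 alternative values of the main comparisons, 371 kept their direction and side of the threshold, or moved by less than the spread between replicates. Of those for named regions and genes, 308 of 342 and 479 of 504 kept their call, and the rest lost it with the same direction. The cause of the changes below was not tested.

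With a limit of 8 kb the mean number of broad peaks was 454 in crwn1/2 endosperm, 720 in WT endosperm, 866 in crwn1/2 leaf and 815 in WT leaf, with median lengths of 11.55, 11.6, 11.8 and 11.5 kb. With 15 kb the numbers were 128, 208, 261 and 218 and the medians 20.725, 19.95, 20.325 and 19.9 kb. With the authors' FDR at most 1e-05 and log2 enrichment at least 1, WT endosperm held 407 broad peaks with a median of 14.525 kb; with gaps of up to 600 bp joined, WT endosperm held 574, with a median of 14.65 kb, and WT leaf 564.

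Several small differences changed sign or went to 0. The density ratio, crwn1/2 minus WT in endosperm, was 0.00647 at 15 kb and 0.0380 with the stricter peaks, in leaf -0.0205 with the stricter peaks, and its endosperm minus leaf effect 0.00151 and 0.0585. The centromere window share at 15 kb gave 0 in endosperm, -0.0498 in leaf and 0.0498 for their difference. Peaks per locus in leaf, crwn1/2 minus WT, were -0.0187 at 15 kb, -0.0848 with the stricter peaks, -0.0389 with joined gaps and -0.0262 with loci of all 12 lists; covered bases in leaf were -0.250 points with the stricter peaks. With the stricter peaks, the endosperm minus leaf differences passed (exact permutation, adjusted p = 0.0438) for density (-0.0939) and window share (-0.816). Given without a test, covered bases were then -22.1 points and single-peak loci -16.1 points, and -21.3 points when 80% of a locus sufficed.

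Counts of called broad regions were 316 in endosperm, 36 in leaf and 174 for the tissue difference with DESeq2, 30, 0 and 1 with limma on reads per covered kb (chosen after seeing the data), and 63 (53 higher, 10 lower) for the tissue difference with total reads as library size. With no filter 889 genes were called at 7 DAP. Leaving out 1 library at a time gave 91 to 265 regions in endosperm, 3 to 9 in leaf and 15 to 118 for the tissue difference. Genes called then numbered 268 to 443 at 6 DAP and 394 to 570 at 7 DAP. The endosperm minus leaf differences were then -0.116 to -0.105 for density, -0.997 to -0.860 for window share, 0.848 to 1.003 for peaks per locus and -17.7 to -11.6 for single-peak loci. The genotype effect in leaf was -0.141 to 0.0798 peaks per locus. In endosperm minus leaf the genotype effect was 0.255 to 0.567 peaks per locus, -16.7 to -8.72 points covered and -27.6 to -12.8 points of single-peak loci.

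Same-numbered replicates shared no more than a number: their deviations from the group means correlated between -0.0675 and 0.109 in regions. With the replicate block the counts were 122 regions in endosperm, 3 in leaf, 481 and 494 between tissues, 28 for the tissue difference, and 398 and 417 genes at 6 and 7 DAP.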

Other observations

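Gene families defined by symbol, and chosen after seeing the loci, differed in how often their members lay inside broad loci, beside 14.03% of all genes. Cytochrome P450 genes (CYP) were inside in 78 of 241 cases (32.4%), RALF-like signalling peptide genes in 13 of 32 (40.6%), UDP-glycosyltransferase genes (UGT) in 16 of 58 (27.6%), and the defensin-like LCR and SCRL genes in 19 of 81 (23.5%) and 6 of 28 (21.4%). Families arranged in clusters share loci, so their members are not independent. Of 38 tested P450 genes inside loci, 10 were lower and none higher in crwn1/2 endosperm at 6 DAP, and 8 lower and 2 higher at 7 DAP. Over all features 6.26 percent were lower and 6.38 percent higher at 6 DAP, and 13.5 and 10.9 percent at 7 DAP. Of 10 tested LCR genes, 4 were higher and 1 lower at 6 DAP, and 3 higher and 1 lower at 7 DAP.

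The authors' own log2 enrichment per peak was higher for broad peaks than for shorter ones in every library. Its median over broad peaks was 1.12, 1.70 and 1.38 in crwn1/2 endosperm, 1.30, 1.30 and 1.27 in WT endosperm, 1.55, 1.59 and 2.03 in crwn1/2 leaf, and 1.96, 2.04 and 1.97 in WT leaf. Over shorter peaks it was 0.704, 1.21 and 0.899 in crwn1/2 endosperm, 0.819, 0.824 and 0.821 in WT endosperm, 0.946, 0.974 and 1.28 in crwn1/2 leaf, and 1.23, 1.27 and 1.23 in WT leaf. The shallow replicate 2 of crwn1/2 endosperm was the highest endosperm library, and replicate 3 of crwn1/2 leaf lay with WT leaf. The control behind these values is unknown, so levels were not compared between libraries with a test.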
